A study of Mus musculus with 32 samples.

Results

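The genes described here are the olfactory receptor genes on mouse chromosome 2. They were taken from the RefSeq gene table of build GRCm38.p6 as the protein-coding genes of that chromosome whose symbol starts with Olfr, or with Or followed by a digit. The rule found 287 genes, out of 21887 protein-coding genes and out of 1110 olfactory receptor genes on all chromosomes. The rule uses symbol and position and no peak value. One of them, Olfr367-ps, carries a pseudogene suffix although the table classes it as protein-coding.

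Histone H3 lysine 9 trimethylation (H3K9me3) was mapped by ChIP-seq in male germ cells of the testis at 4 stages: E13.5 and E16.5, counted in days of embryonic life, and P0 and P3, counted in days after birth. At each stage the animals were Morc1 (+/-), called het here, or Morc1 (-/-), called KO, and the study asked what loss of Morc1 does to gonocyte chromatin. All of them, the het controls included, carried the Mvh-Venus transgene, a fluorescent reporter under the control of a germ cell gene, and no wild-type group was analysed here. The labels give 32 samples in 16 groups of 2, and 1 peak list was deposited for each of the 8 H3K9me3 groups, so no value below has a replicate error and no test between genotypes or stages was possible. Differences are differences between 2 lists. Neither the number of animals behind a sample nor the read depth behind a list is given in the sources used here, and germ cell markers could not be checked because a peak list holds no expression value. The KO label could not be checked either: peaks covered 2.0, 1.62, 3.47 and 3.21 kb of the Morc1 gene in the het lists from E13.5 to P3 and 1.56, 0, 0 and 1.00 kb in the KO lists, and cover by a histone mark says nothing about a deleted exon.

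Olfactory receptors are G protein-coupled receptors with a coding sequence usually held in a single exon, and they make up the largest gene family of the mouse. They lie in tandem clusters on many chromosomes. Each mature olfactory sensory neuron expresses 1 allele of 1 receptor gene, and the silent copies there carry H3K9me3 and other marks of heterochromatin, the condensed state that the mark is known for. Outside the nose most of these genes are silent. Morc1 encodes a nuclear ATPase of the germ line that is known for its part in silencing transposable elements.

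The members lay in 3 clusters, where a cluster is a run of members with less than 500 kb between neighbours. The proximal cluster held 28 genes over 0.956 Mb (chr2:36376778-37332732), from Olfr338 to Olfr368. Its nearest neighbours outside the family were Ptgs1, which encodes a cyclooxygenase, 118 kb before it, and Pdcl, which encodes a phosducin-like protein, 17.3 kb after it. The large cluster held 222 genes over 5.07 Mb (chr2:85330967-90401674), from Olfr987 to Olfr1274, between Lrrc55 at 132 kb and the receptor tyrosine phosphatase gene Ptprj at 28.1 kb. Only 3 other protein-coding genes lay inside it (Fads2b, Pramel7 and Pramel6). The distal cluster held 37 genes over 0.926 Mb (chr2:111230853-112157007), from Olfr1275 to Olfr1318, between A26c3 at 1.25 kb and Gm52523 at 71.8 kb. The median gap between neighbouring members was 30.3 kb in the proximal cluster, 17.8 kb in the large cluster and 22.5 kb in the distal cluster. The member bodies had a median length of 945 bp, against 17169 bp over all protein-coding genes, and 228 of the 287 lengths were multiples of 3, so most models hold the coding sequence and little else.

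Start windows of 5 members are shown because they stand for the behaviours described below: Olfr346 and Olfr358 lay under peaks in all 8 lists, Olfr1135 was covered at E16.5, the body of Olfr1298 was covered in postnatal het lists only, and Olfr1295 reached full cover in KO lists only. Each window runs from 250 bases before to 50 bases after the annotated start, 5′ to 3′ on the strand of the gene, from RefSeq on GRCm38.p6, and capitals mark the 50 bases from the annotated start, which begin with ATG in all 5. Olfr346 is on the plus strand at chr2:36687754-36688053, Olfr358 on the minus strand at chr2:37005563-37005862, Olfr1135 on the minus strand at chr2:87672316-87672615, Olfr1298 on the minus strand at chr2:111645946-111646245 and Olfr1295 on the minus strand at chr2:111565393-111565692.
Olfr346: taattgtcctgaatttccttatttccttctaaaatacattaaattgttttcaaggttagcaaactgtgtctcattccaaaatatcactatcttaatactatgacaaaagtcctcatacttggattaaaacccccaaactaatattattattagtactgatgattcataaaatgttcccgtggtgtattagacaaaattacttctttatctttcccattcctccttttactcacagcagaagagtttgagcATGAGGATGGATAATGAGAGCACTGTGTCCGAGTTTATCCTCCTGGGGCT
Olfr358: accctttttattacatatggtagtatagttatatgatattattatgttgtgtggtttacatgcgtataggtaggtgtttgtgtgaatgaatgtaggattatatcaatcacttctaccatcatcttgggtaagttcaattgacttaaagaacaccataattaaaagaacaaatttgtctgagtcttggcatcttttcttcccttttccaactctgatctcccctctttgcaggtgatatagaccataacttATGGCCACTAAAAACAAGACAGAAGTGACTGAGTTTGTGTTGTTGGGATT
Olfr1135: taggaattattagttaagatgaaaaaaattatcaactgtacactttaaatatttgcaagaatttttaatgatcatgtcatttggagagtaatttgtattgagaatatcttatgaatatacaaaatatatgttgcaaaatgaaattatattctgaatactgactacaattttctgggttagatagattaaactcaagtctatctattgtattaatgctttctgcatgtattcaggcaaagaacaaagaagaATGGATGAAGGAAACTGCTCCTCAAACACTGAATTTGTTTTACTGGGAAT
Olfr1298: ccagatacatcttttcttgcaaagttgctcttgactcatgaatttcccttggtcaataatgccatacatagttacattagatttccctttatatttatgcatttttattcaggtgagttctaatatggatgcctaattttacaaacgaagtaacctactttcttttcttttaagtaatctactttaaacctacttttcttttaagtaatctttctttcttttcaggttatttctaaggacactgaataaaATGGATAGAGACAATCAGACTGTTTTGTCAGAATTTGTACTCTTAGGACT
Olfr1295: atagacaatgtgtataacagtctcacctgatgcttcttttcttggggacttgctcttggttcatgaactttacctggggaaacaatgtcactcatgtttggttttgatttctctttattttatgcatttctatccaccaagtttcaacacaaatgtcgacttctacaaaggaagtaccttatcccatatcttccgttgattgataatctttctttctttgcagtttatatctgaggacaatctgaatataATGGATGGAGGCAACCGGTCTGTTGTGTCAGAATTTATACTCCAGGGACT
All 300 bases of the Olfr346 and Olfr358 windows lay in a peak in every list. The Olfr1135 window was wholly covered at E16.5 in het and KO and at P0 in KO, and not at all in the other 5 lists. The Olfr1298 window was wholly covered at P0 and P3 in het and at 0 elsewhere, and the Olfr1295 window was wholly covered at P0 and P3 in KO and at 0 elsewhere. The GC content of the 5 windows was 34.3%, 34.7%, 27.3%, 30.7% and 37.7% in the order shown.

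The table of start windows held 243 of the 287 members, with 245 windows. Their median GC content was 32.7%, against 56.3% over 21263 windows of all protein-coding genes, and 35.5% of them held no CpG, against 4.63% of all windows. By cluster the median GC content was 35.7% (proximal), 32.0% (large) and 33.7% (distal). The bases at the annotated start were ATG in 182 of the 245 windows (74.3%), against 8.13% of all windows, so in most members the window shows the sequence around the start codon and not a mapped promoter. The letters TAATTA, the core of many homeodomain sites, were searched on both strands and found in 24.5% of the member windows and in 4.53% of all windows of the same length. Among the 5 windows above only that of Olfr358 held it. The letters CCCNNGGG, part of the site of the early B cell factors, were searched likewise and found in 2.04% of the member windows and in 15.6% of all windows. A match is a match of letters in this window, and AT-rich sequence holds TAATTA more often by its composition.

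At E13.5 most of the H3K9me3 cover of these genes lay in the proximal cluster, with 28 of the 39 covered bodies in het and 27 of 39 in KO, and from E16.5 more genes of the other clusters were covered. A peak overlapped the body of 39 members in the E13.5 het list and 39 in the KO list (13.6% of 287 each, 95% Wilson interval 10.1% to 18.0%). At E16.5 the numbers were 106 (36.9%, interval 31.6% to 42.7%) in het and 96 (33.4%, 28.2% to 39.1%) in KO, at P0 they were 86 (30.0%, 25% to 35.5%) and 88 (30.7%, 25.6% to 36.2%), and at P3 they were 69 and 69 (24.0% each, 19.5% to 29.3%). These intervals cover counting error only, and neighbouring genes share peaks. Over all protein-coding genes the share with a peak in the body was 29.5% and 32.9% at E13.5 in het and KO, 31.8% and 31.0% at E16.5, 33.9% and 38.8% at P0, and 37.5% and 40.1% at P3. The share among members was thus below that of all genes at E13.5 and P3. At E16.5 it was higher and at P0 lower, but the all-gene shares at E16.5 and in P0 het lay inside the members' intervals. A member body is much shorter than that of a typical gene and so has less room for a peak.

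Over start windows of equal length the share with a peak was higher among members than among all genes in each list, although at E13.5 this came from the proximal cluster. This measure was added after the gene body counts had been seen. A peak overlapped 36 of the 245 member start windows in the E13.5 het list (14.7%) and 34 in the KO list (13.9%), against 3.96% and 5.35% of all start windows. Of these, 27 and 26 belonged to the proximal cluster, and the large cluster had 7 of its 187 windows under a peak in each of the 2 lists. At E16.5 there were 80 (32.7%) in het and 73 (29.8%) in KO, against 4.29% and 4.06%. At P0 there were 59 (24.1%) and 60 (24.5%), against 4.42% and 4.98%. At P3 there were 48 (19.6%) and 52 (21.2%), against 3.96% and 4.70%. Most other genes have GC-rich starts, and the windows were not matched for base composition.

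Measured in base pairs, peaks covered 10.5% of the member bodies in the E13.5 het list and 10.6% in KO, 27.0% and 24.7% at E16.5, 20.6% and 22.5% at P0, and 16.7% and 17.1% at P3. Over all protein-coding genes the shares were 3.15% and 3.73%, 5.46% and 5.0%, 5.96% and 7.09%, and 6.38% and 7.60%. The 5 kb flanks on each side were covered to 12.7% and 13.7% at E13.5, 28.3% and 26.7% at E16.5, 25.9% and 25.6% at P0, and 20.3% and 20.9% at P3, close to the bodies themselves. The median member had 0 kb of cover in body and flanks at E13.5 in both genotypes. From E16.5 to P3 it had 1.59, 1.15 and 0.06 kb in het and 1.25, 1.27 and 0.65 kb in KO. Over all protein-coding genes the median was 0 kb in the 4 embryonic lists and the postnatal het lists, and it was 0.59 and 0.55 kb in the KO lists of P0 and P3.

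**Figure D1:**
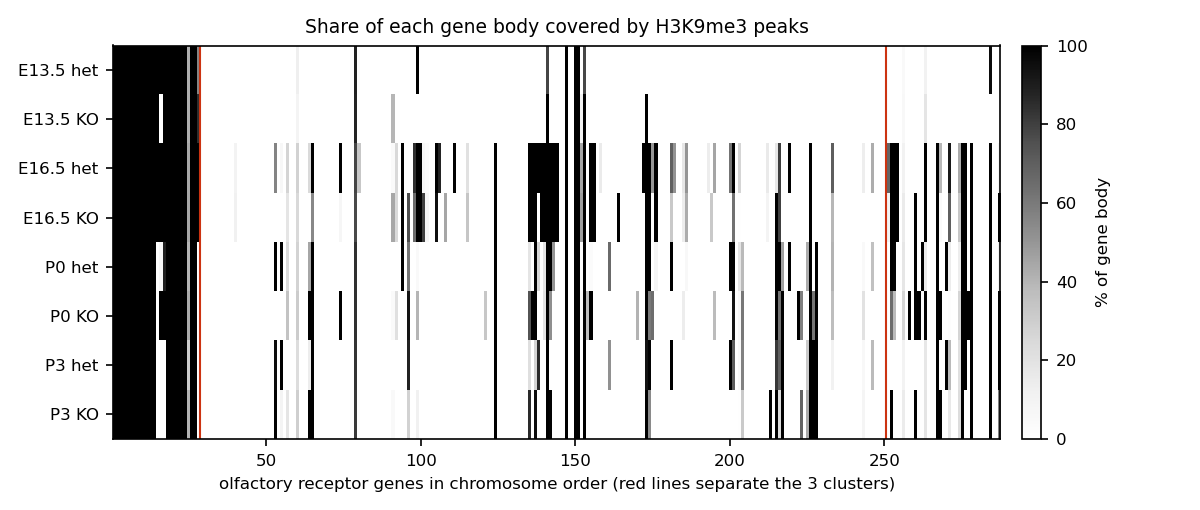
Share of each gene body covered by H3K9me3 peaks (grey scale, %) for the 287 olfactory receptor genes of chromosome 2 in chromosome order (x axis) in each of the 8 lists (rows), with red lines between the 3 clusters. The proximal cluster is dark in all lists, and most of the large cluster is white, with more covered genes at E16.5 than at E13.5.

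Receptor genes of the proximal cluster were covered early and remained so. Of its 28 genes, 28 had a peak in the body at E13.5 in het and 27 in KO, 28 and 28 at E16.5, 26 and 26 at P0, and 24 and 24 at P3. Peaks covered 87.2% of the bodies in het and 85.8% in KO at E13.5, 88.6% and 88.7% at E16.5, 81.4% and 84.2% at P0, and 77.5% and 79.5% at P3. The DNA between its genes was covered to a lower degree in every list, from 64.2% in E13.5 KO down to 49.4% in P3 het. Within 1 kb downstream of the annotated start the mean cover over 27 genes was 97.1% in E13.5 het and 99.1% in E16.5 het, and in the bins between 9 and 10 kb downstream it was 57.4% and 55.6%. In P3 het the same values were 83.3% and 49.2%. The kb before the start was covered more than the first kb in each list except P0 KO (89.0% against 91.4%). It was at 100% in E13.5 het, 99.4% in E16.5 het and 83.7% in P3 het, and the highest bin lay upstream of the start in each list. The bins 9 to 10 kb upstream were at 63.2%, 63.8% and 44.0%.

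Of the 26 members whose body was wholly covered in all 8 lists, 23 were in the proximal cluster and 3 in the large cluster (Olfr1152, Olfr1155 and Olfr1156). They were 9.06% of the members, against 0.955% of all protein-coding genes, whose bodies are longer. The longest of the 26 was Olfr342, a model of 8223 bp (chr2:36520130-36528352), followed by Olfr367-ps (4437 bp), Olfr1156 (1076 bp), Olfr358 (993 bp), Olfr361 (969 bp) and Olfr360 (954 bp). For Olfr358 and Olfr360 the flanks were wholly covered too, at 10.99 and 10.95 kb in each of the 8 lists. Body and flanks of Olfr342 held 16.11, 15.10, 15.91 and 14.95 kb of cover in the het lists, in order of stage, and 16.08, 15.24, 15.51 and 14.88 kb in the KO lists. The spread between the highest and the lowest list was small beside the level.

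The longest peak over any member lay in the same place in 7 of the 8 lists, over Olfr346. It ran from chr2:36683765-36728439 in E13.5 het, a length of 44.7 kb. It was 44.6, 44.5 and 38.4 kb long in the later het lists and 38.7, 42.1 and 36.0 kb long in the later KO lists. In the E13.5 KO list the longest was a peak of 51.8 kb over Olfr348, Olfr50 and Olfr3 (chr2:36782738-36834517). Peaks over members were longer than the lists' peaks in general: their median was 12.50 kb in E13.5 het and 10.06 kb in E13.5 KO, against 1.85 and 1.90 kb over all peaks, and it lay between 5.91 and 7.24 kb in the later lists, against 2.35 to 2.55 kb. A longer peak has more chance of touching a gene, which raises these medians.

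Gene bodies in a short stretch of the proximal cluster had less cover after birth or none, while peaks remained in their flanks at most of them. Olfr352 was wholly covered in the body at E13.5 and E16.5 in het and KO and at 0 in all 4 lists of P0 and P3, where body and flanks together still held 7.51 and 3.62 kb in het and 7.91 and 6.26 kb in KO. Its neighbour Olfr353 was covered to 100%, 100%, 5.45% and 0% in the het lists, in order of stage, and to 0%, 100%, 100% and 0% in the KO lists. Olfr354 was wholly covered in the 4 embryonic lists, at 89.5% and 100% at P0, and at 0% at P3. The last gene of the cluster, Olfr368, was covered to 55.8% (het) and 85% (KO) in the E13.5 lists, to 100% in the E16.5 lists, and to 0% in the 4 later ones. The other 24 genes of the cluster had a peak in the body in all 8 lists.

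In the large cluster most receptor genes had no peak in the body in any list. Of its 222 genes, 143 had none, and the distal cluster held a further 16 of 37. So 159 members (55.4%) had no peak in the body in any list, against 45.8% of all protein-coding genes, whose bodies are longer. With the 5 kb flanks included the order was the reverse, with no cover in any list at 24.0% of members and 32.0% of all genes. In the large cluster a peak was found in 8 and 10 bodies at E13.5 (het and KO), 63 and 52 at E16.5, 44 and 44 at P0, and 34 and 33 at P3. The 7 members of the large cluster with a peak in all 8 lists were Olfr1033, Olfr1055, Olfr1141, Olfr1152, Olfr1155, Olfr1156 and Olfr74, named because they are the whole of that class. Olfr1155 and Olfr1156 are neighbours, and their joint run with Olfr1157 and Olfr74 was the longest run of covered genes of this cluster in the E13.5 KO list, at 4 genes.

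Cover of the large cluster was 6.26% of its span in het and 7.13% in KO at E13.5, 20% and 18.0% at E16.5, 19.4% and 17.6% at P0, and 13.2% and 12.8% at P3. Unlike in the proximal cluster, the receptor genes were not the densest part. Bodies and the DNA between them were covered alike at E16.5 (20.9% and 20% in het, 17.1% and 18.0% in KO), and the bodies were covered less at E13.5 (2.61% against 6.54% in het), P0 (12.8% against 19.9% in het) and P3 (9.30% against 13.1% in KO). The profile around the start was flat at E16.5: over 186 genes the first kb held 21.2% in het, the kb before the start 22.2%, and the bins 9 to 10 kb away 17.5% upstream and 21.2% downstream.

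Within the large cluster, cover varied along the chromosome. The stretch between 2.2 and 2.8 Mb from its first gene, from Olfr153 to Olfr1166, was covered in its 200 kb windows to 35.6%, 40% and 41.7% in E16.5 het and to 32.3%, 38.7% and 36.7% in E16.5 KO, the highest windows of the cluster in those lists. The same windows held 11.4%, 11.1% and 10.6% in E13.5 het and 22.7%, 21.5% and 17.2% in P3 het. In E16.5 het 10 neighbouring members from Olfr1134 to Olfr1145 all had a peak in the body. The last stretch of the cluster, with the single gene Olfr1274, held no peak in any list over 70.7 kb. Long runs of members without a peak in the body were present too, such as 97 neighbouring members from Olfr1158 to Olfr1274 in E13.5 het and 27 from Olfr1090 to Olfr1121 in P3 het.

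**Figure D2:**
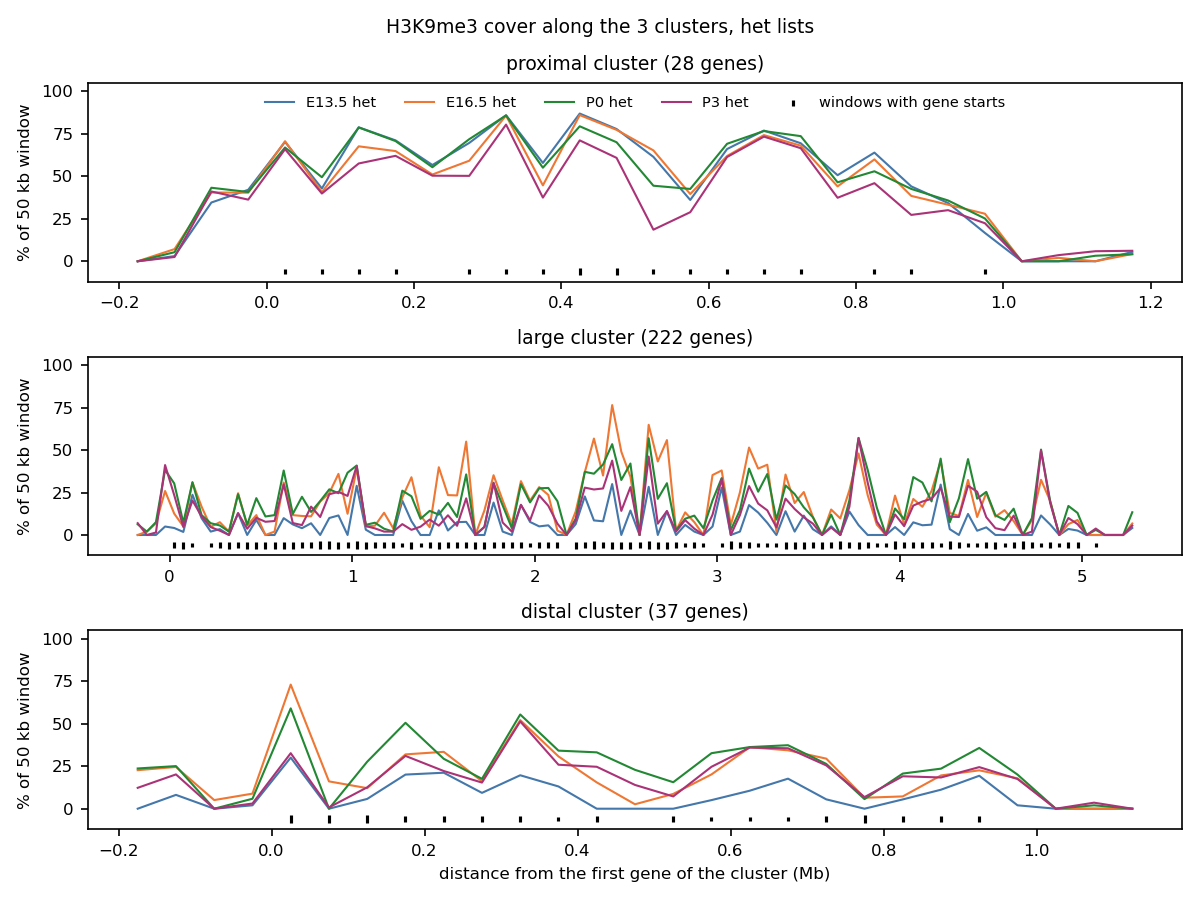
Share of each 50 kb window covered by H3K9me3 peaks (y axis, %) against distance from the first gene of each cluster (x axis, Mb) in the 4 het lists, with 1 panel per cluster and black marks under windows that hold gene starts. The proximal cluster is covered at similar levels at all stages, while the E13.5 line is the lowest over most of the other clusters.

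The distal cluster, like the large one, was covered little at E13.5 and more from E16.5, but its cover was higher at P0 than at E16.5. A peak was found in 3 and 2 of its 37 bodies at E13.5 (het and KO), 15 and 16 at E16.5, 16 and 18 at P0, and 11 and 12 at P3. Peaks covered 9.44% and 10.2% of its span at E13.5, 24.1% and 24.7% at E16.5, 29.1% and 29.5% at P0, and 22.3% and 23.6% at P3. Its bodies were covered to 3.91% in E13.5 het and 21.0% in E16.5 het, against 10.1% and 24.5% between them. At E16.5 in het the first kb after the start held a mean of 32.6% over 30 genes, with a highest 500-base bin of 44.6% centred 1250 bases downstream, and 18.4% and 13.2% in the bins 9 to 10 kb upstream and downstream. Only Olfr1280 and Olfr1287 had a peak in all 8 lists here.

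**Figure D3:**
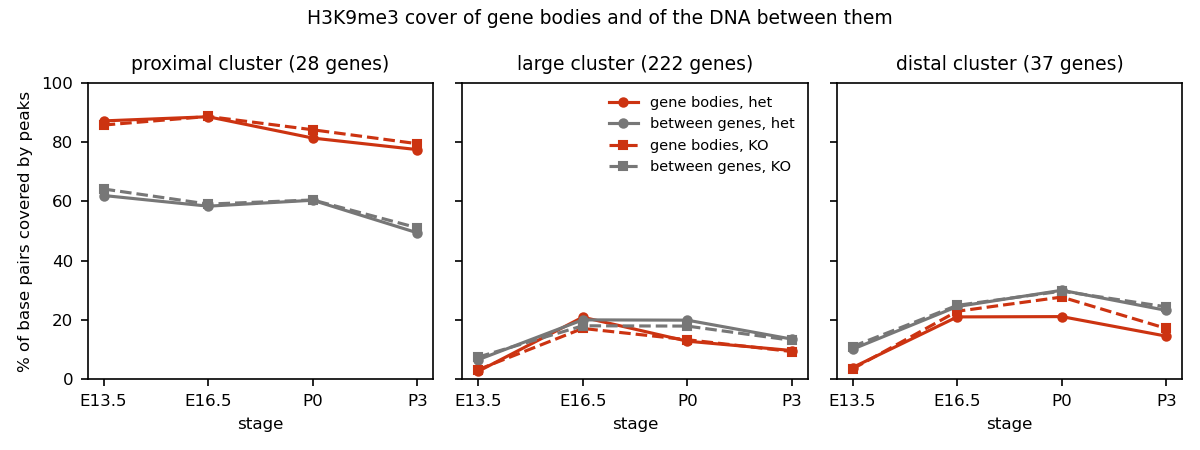
Share of base pairs covered by H3K9me3 peaks (y axis, %) at the 4 stages (x axis) for gene bodies (red) and the DNA between them (grey) in het (circles, solid lines) and KO (squares, dashed lines), 1 panel per cluster and 1 list per point, with no error bars because each group has 1 list. Red lies above grey at every stage in the proximal cluster, and not in the other clusters except at E16.5 in the het list of the large cluster.

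**Figure D4:**
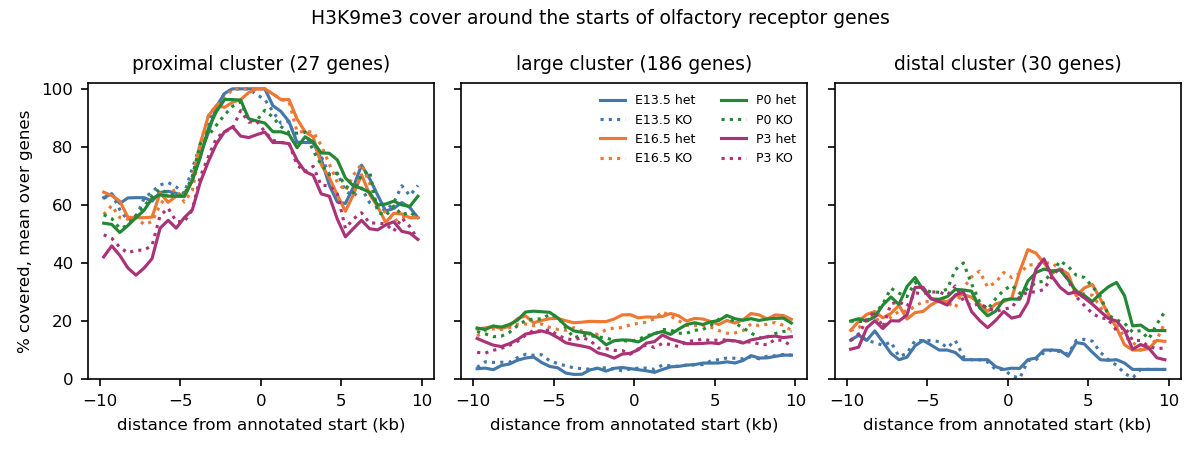
Mean share of each 500-base bin covered by H3K9me3 peaks (y axis, %) against distance from the annotated start (x axis, kb, positive in the direction of transcription) over the genes with a known strand, in the 8 lists (solid het, dotted KO), 1 panel per cluster. The proximal cluster peaks around the start at 83% to 100%, whereas the large cluster shows no such rise.

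The edges of the clusters differed. The last 100 kb inside the proximal cluster were covered to between 31.0% (P3 het) and 45.3% (E13.5 KO), and the first 100 kb beyond it to between 5.52% (E13.5 het) and 10% (P0 het). On its other side the 100 kb outside were covered to between 37.2% and 45.4%, so cover went on beyond the first receptor gene, Olfr338, whose body and flanks were wholly covered in all 8 lists at 10.92 kb. At the far end of the large cluster, both the last 100 kb inside and the first 100 kb outside were at 0 in the 4 embryonic lists and at most 3.45% later. Of the neighbouring genes, Ptgs1 held between 1.25 and 3.58 kb of its 41852 bp. Pdcl held at most 0.38 kb of 9747 bp, Lrrc55 at most 1.91 kb of 10684 bp and Ptprj at most 2.0 kb of 150939 bp. Gm52523 held none in any list. Inside the large cluster, Pramel6 and Pramel7 held none, and Fads2b between 3.83 and 7.20 kb of its 34844 bp. A26c3, a long gene of 179194 bp next to the distal cluster, held 5.07, 23.34, 20.36 and 13.27 kb in the het lists and 6.63, 28.80, 26.61 and 19.59 kb in the KO lists, in order of stage, and so more in KO at each stage.

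Across stages, calls among members were mostly higher from E13.5 to E16.5 and mostly lower from P0 to P3. A member was called where the covered length of body and 5 kb flanks differed by at least 1000 bp, about the length of the shortest peaks. In het, 137 members (47.7%) were called higher at E16.5 than at E13.5 and 6 lower, against 26.8% and 9.10% of all protein-coding genes. In KO the numbers were 124 (43.2%) and 4, against 21.4% and 14.8%. From E16.5 to P0, 49 members were higher and 74 (25.8%) lower in het, against 21.0% and 14.2%, and 56 and 61 (21.3%) in KO, against 31.0% and 7.80%. From P0 to P3, 11 were higher and 79 (27.5%) lower in het, against 20.7% and 14.7%, and 11 and 81 (28.2%) in KO, against 21.0% and 15.9%. From E16.5 on, lower calls outnumbered higher ones among members, whereas higher calls outnumbered lower ones over all genes. The distal cluster was an exception from E16.5 to P0, with 9 higher and 9 lower in het and 12 higher and 5 lower in KO.

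The covered length of the merged bodies and flanks was 394, 895, 799 and 627 kb in the het lists and 421, 841, 800 and 645 kb in the KO lists, in order of stage, out of 3185 kb. Beside these lengths stands how much was called in all: in the whole genome the het lists covered 166, 306, 325 and 287 Mb and the KO lists 189, 283, 340 and 314 Mb. From E16.5 to P0 the totals were higher while the member lengths were lower. In het the ratio of the later to the earlier stage was 2.27, 0.892 and 0.786 for the 3 steps, and in KO it was 2.0, 0.95 and 0.807. Over all protein-coding genes it was 1.70, 1.09 and 1.03 in het and 1.32, 1.37 and 1.05 in KO. Olfactory receptor genes on other chromosomes gave 1.60, 0.979 and 0.859 in het and 1.44, 1.06 and 0.894 in KO. Those on chromosome 7 alone gave 2.86, 1.10 and 0.921 in het and 2.21, 1.18 and 0.978 in KO. A first step above that of all genes was thus not particular to chromosome 2. The first step differed by cluster: in het it was 1.01 in the proximal cluster (265 to 267 kb) and 5.24 in the large cluster (95.3 to 500 kb).

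The members with the largest changes between stages show extremes of the time course. Their high and low stages follow in part from that choice. Olfr1157, the member with the largest gain in het between E13.5 and E16.5, held 0.11, 12.86, 8.80 and 5.39 kb in the het lists, in order of stage, and 3.54, 12.99, 6.92 and 6.08 kb in the KO lists. In KO the largest gain at that step was at Olfr1277, which held 0, 10.91, 3.54 and 0 kb in the KO lists and 0, 7.35, 1.30 and 0 kb in the het lists. Both genes were at their highest at E16.5 in each genotype.

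Olfr1140 had the largest loss in het between E16.5 and P0. In order of stage it held 1.00, 11.02, 2.58 and 0.89 kb in het and 1.17, 11.02, 5.20 and 4.51 kb in KO. Its KO counterpart by the same rule, Olfr1094, held 1.00, 7.80, 0 and 1.00 kb in KO, and in het 5.96 kb at E16.5 and 0 kb at the other stages. Both were highest at E16.5 in het and in KO. In the body, 23 members (8.01%) had a peak at E16.5 only, 21 of them in the large cluster, against 1.14% of all protein-coding genes.

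Olfr1253 had the largest gain in het from P0 to P3: it held 0, 1.59, 3.15 and 7.79 kb in the het lists, in order of stage, and 0, 3.57, 6.73 and 6.73 kb in the KO lists. Olfr1099, the largest gain in KO at that step, held 0, 4.44, 1.00 and 4.26 kb in KO and 1.00, 5.83, 0 and 0 kb in het, so its P3 cover was present in KO alone. A peak at P0 or P3 and at no earlier stage was found in the body of 17 members (5.92%), against 12.1% of all protein-coding genes. The losses of the first step were small: the largest were 1.51 kb at Olfr367-ps in het and 1.82 kb at Olfr3 in KO, and both bodies were wholly covered throughout.

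Between het and KO, the members as a group differed little in covered length. The KO to het ratio over bodies and flanks was 1.07, 0.940, 1.00 and 1.03 in order of stage, from the covered lengths given above. Over all protein-coding genes it was 1.19, 0.921, 1.16 and 1.18, and over the other protein-coding genes of chromosome 2 it was 1.28, 0.915, 1.19 and 1.19. Olfactory receptor genes on other chromosomes gave 1.07, 0.961, 1.05 and 1.09. Among them, those on chromosomes 9 to 11 gave 1.04, 0.955, 1.00 and 1.05, and those on chromosome 7 gave 1.18, 0.910, 0.977 and 1.04. Ratios near 1 at P0 and P3 were thus not particular to chromosome 2. At E13.5 the ratio on chromosome 7 was close to that of all genes. By cluster, the proximal cluster gave 1.01, 1.02, 1.00 and 1.03, the large cluster 1.22, 0.873, 0.965 and 1.01, and the distal cluster 1.10, 1.04, 1.12 and 1.07. At P0 the ratio of all members depended on the setting, with 0.960 for 10 kb flanks and 1.09 for gene bodies alone. The difference between members and other genes has no test, and the total covered lengths of the lists differed between genotypes as given above.

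The share of covered positions common to both genotypes differed by cluster, and so did the level of cover. Lists that cover more of a region have more positions in common by that alone. At E13.5 body and flanks were covered to 84.1% (het) and 84.8% (KO) in the proximal cluster. In the large cluster they were covered to 3.89% and 4.75%. The part of this in the shares below was not tested. In the proximal cluster 98.7% of the het cover at E13.5 was also covered in KO, and 97.9% of the KO cover was also covered in het. At P3 the shares were 96.7% and 93.4%. In the large cluster they were 79.7% and 65.2% at E13.5, 77.7% and 89.1% at E16.5, 76.2% and 78.9% at P0, and 74.2% and 73.7% at P3. In the distal cluster they were 94.6% and 85.8%, 88.5% and 84.8%, 89.3% and 80.1%, and 84.4% and 78.5%. Over all protein-coding genes they were 86.1% and 72.5%, 83.5% and 90.7%, 85.4% and 73.5%, and 84.0% and 71.5%, in order of stage.

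Calls of 1000 bp or more went both ways. At E13.5, 7 members (2.44%) were called higher in het and 17 (5.92%) higher in KO, against 4.92% and 18.0% of all protein-coding genes. At E16.5 there were 50 (17.4%) higher in het and 28 (9.76%) higher in KO, against 11.1% and 4.43%. At P0 there were 38 (13.2%) and 49 (17.1%), against 7.07% and 24.3%, and at P3 there were 32 (11.1%) and 50 (17.4%), against 8.20% and 23.1%. Calls in KO at E13.5, P0 and P3 were less frequent among members than among all genes in these lists, and calls in het at E16.5, P0 and P3 more frequent. At E16.5 calls in KO were more frequent among members too, and at E13.5 calls in het less frequent. The median difference was 0 kb at each stage, among members and among all genes. The counts depend on the measure: with a difference of 2000 bp or more, 18 members were called higher in het and 20 in KO at P0, and over gene bodies alone 4 and 4. Of the 287 members, 149 were called at 1 stage or more, 37 in opposite directions at different stages, and 76 had the same covered length in het and KO at each stage, 69 of them because body and flanks held no peak in any list. These shares (51.9%, 12.9% and 26.5%) stand beside 53.1%, 13.8% and 32.8% of all protein-coding genes.

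**Figure D5:**
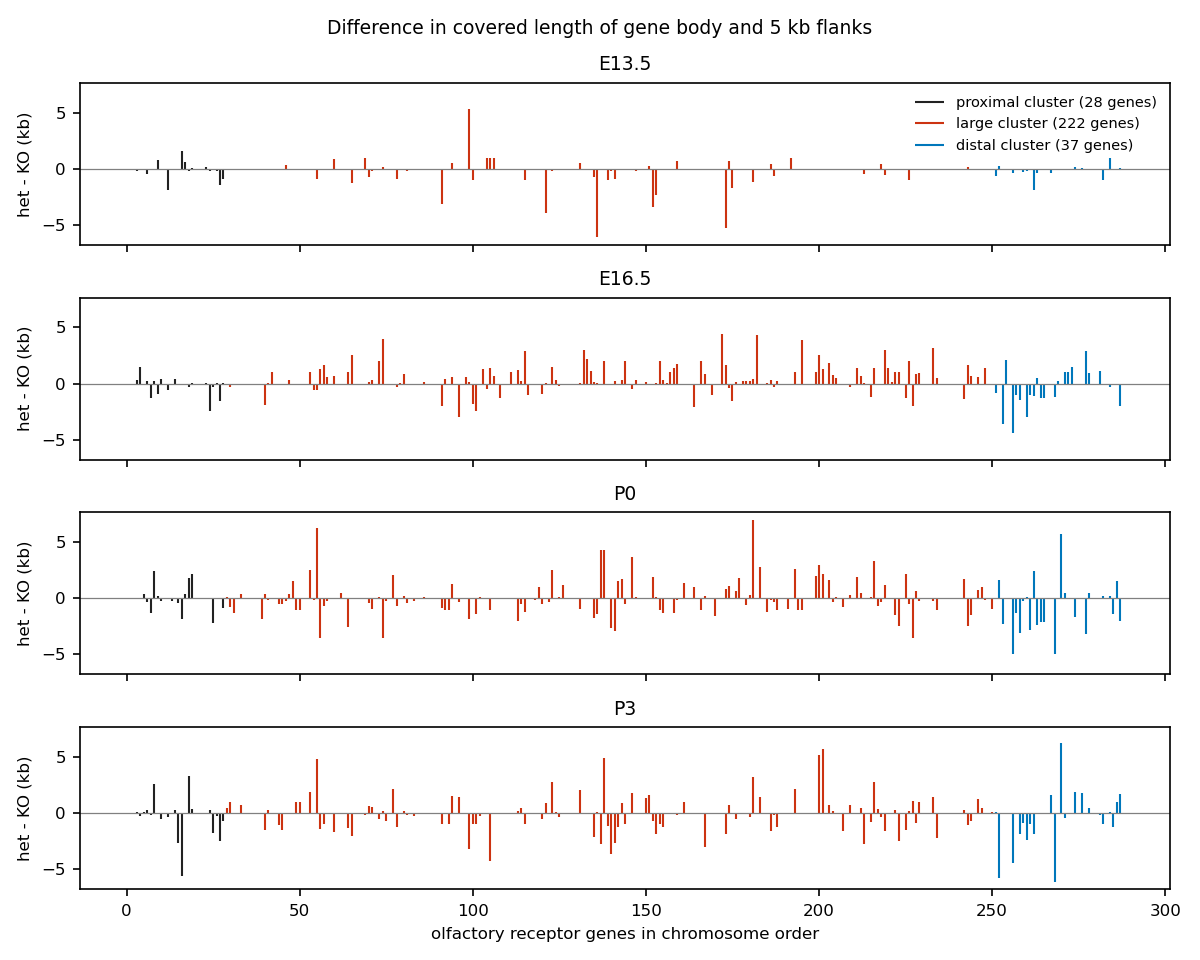
Difference in covered length of gene body and 5 kb flanks between het and KO (y axis, kb, positive where het is higher) for the 287 members in chromosome order (x axis), coloured by cluster, with 1 panel per stage and 1 list per genotype. Differences go both ways at each stage and are few at E13.5, when most members held no peak.

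The largest differences between genotypes lay in the large and distal clusters. In order of stage, Olfr1198 held 1.00, 3.58, 7.26 and 4.25 kb in the het lists and 2.17, 3.19, 0.26 and 1.06 kb in the KO lists. Its het lists were thus higher from E16.5 on, with the largest gap of any member at P0, 6.99 kb. Its body was wholly covered at P0 and P3 in het and at 0 in KO.

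Olfr1298, whose start window is shown above, held 0 kb in the 4 embryonic lists. After birth it held 6.70 and 6.26 kb in the het lists and 1.00 and 0 kb in the KO lists. It had the largest gain of any member in het between E16.5 and P0. Olfr1295 in the same cluster did the reverse: it held 0, 5.36, 5.96 and 4.82 kb in the het lists, in order of stage, and 0, 6.54, 10.94 and 10.94 kb in the KO lists. The body of Olfr1295 was covered to 0% in het and 100% in KO at P0 and P3. Both genes were named for the largest difference at P3, Olfr1298 in the het direction and Olfr1295 in the KO direction. Their opposite directions thus follow from the choice.

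At other members the gap between genotypes did not keep its size or direction across stages. Olfr1135 held 1.00, 9.53, 7.43 and 5.57 kb in the het lists, in order of stage, and 7.07, 9.47, 8.84 and 5.51 kb in the KO lists, so its gap lay at E13.5. Olfr1183 held cover at E16.5 only, 6.83 kb in het and 2.42 kb in KO. Olfr141 held 7.24, 9.07, 5.99 and 2.74 kb in het and 1.95, 8.96, 7.85 and 5.96 kb in KO, and so was higher in het before birth and in KO after it. In the proximal cluster Olfr353 held 10.94, 10.94, 9.12 and 2.12 kb in het and 9.34, 10.94, 10.94 and 7.69 kb in KO. Its loss from P0 to P3 was the largest of any member in het.

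Few members differed in the same direction at all 4 stages, and so did few of all protein-coding genes. The count is limited by E13.5, when 90 members (31.4%) differed at all, against 44.0% of all protein-coding genes. Of the 287, 6 were higher in het at each stage (2.09%, against 0.937% of all protein-coding genes) and 8 higher in KO (2.79%, against 4.09%), counting differences of any size. The first by size of their smallest difference in het was Olfr1086, with 2.78, 8.79, 6.06 and 1.52 kb in the het lists, in order of stage, against 2.24, 8.25, 4.77 and 0 kb in the KO lists. Olfr356, Olfr346, Olfr142 and Olfr1056 followed, with smallest differences of 0.064 kb or less. For Olfr346 the flanks differed mainly after birth, with 10.08 and 10.01 kb in the postnatal het lists against 7.62 and 7.42 kb in KO, while its body was wholly covered in all lists.

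Among members higher in KO at each stage, Olfr1082 held 4.60, 2.97, 1.83 and 1.00 kb in the KO lists, in order of stage, against 1.52, 1.00, 1.00 and 0 kb in the het lists. Olfr1280 held 3.25, 10.84, 17.11 and 10.32 kb in KO against 2.88, 6.48, 12.12 and 5.86 kb in het. It had the largest gap in the KO direction at E16.5 (het minus KO, -4.36 kb) and P0 (-4.99 kb). Its model spans 60182 bp and overlaps those of 3 other members (Olfr1281, Olfr1282 and Olfr1283), so its values are those of a region rather than of 1 coding exon, and its start window lay in no peak. Olfr1054, Olfr1204 and Olfr1057 were higher in KO at each stage, with het minus KO differences no nearer to 0 than -0.341, -0.186 and -0.115 kb, and had no peak in the body in any list.

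Directions were also compared between P0 and P3. Of 52 members called at both P0 and P3, 18 were higher in het at both, 23 higher in KO at both, and 11 changed direction (34.6%, 44.2% and 21.2%). Of the 4222 protein-coding genes called at both stages the shares were 16.3%, 70.8% and 12.9%. In the proximal cluster the 4 such members kept their direction. In the large cluster 14 of 37 were higher in het at both, 16 higher in KO at both, and 7 changed direction. In the distal cluster 4 of 11 changed direction.

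Close copies of receptor genes can share reads, and how reads with several matches were treated is not given in the sources used here. The start windows were therefore compared with each other by their 25-base words. Of the 245 windows, 6, all in the large cluster, shared at least 50% of their words with another member's window. Among them was that of Olfr1057 (62.7%), and none of the 6 lay in a peak in any list. Coding sequence past the first 50 bases, members without a window and receptor genes of other chromosomes were not compared. The windows of Olfr1082 and Olfr1253 shared 48.2% and 43.1%. Those of Olfr346, Olfr358, Olfr1135, Olfr1298 and Olfr1295 shared at most 10.1%. The part of shared reads in the uncovered genes was not tested.

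Pseudogenes of the family were also covered more from E16.5 than at E13.5. Of 90 olfactory receptor pseudogenes on the chromosome (median length 907 bp), a peak overlapped 14 and 16 at E13.5 (het and KO), 37 and 36 at E16.5, 27 and 26 at P0, and 25 and 26 at P3. As shares of base pairs these were 7.79% and 9.70%, 22.0% and 20.6%, 23.8% and 22.7%, and 19.0% and 19.9%. Their covered share was higher at P0 than at E16.5, whereas that of the member bodies was lower.

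Genes that act with the receptors in olfactory neurons had a smaller share of their base pairs covered than the members. Of 20 genes of olfactory transduction, receptor trafficking and receptor choice, a peak overlapped the body of 8 and 9 at E13.5, 6 and 6 at E16.5, 10 and 10 at P0, and 9 and 9 at P3. Over all protein-coding genes the share with a peak ran from 29.5% (E13.5 het) to 40.1% (P3 KO). The covered share of the base pairs of the 20 genes was 1.68%, 2.50%, 2.97% and 3.89% in the het lists, in order of stage, and 2.60%, 2.19%, 4.43% and 5.25% in the KO lists. Over all protein-coding genes it ran from 3.15% to 7.60%. Member bodies are much shorter, and a smaller share of members than of the 20 genes had a peak at E13.5, P0 and P3. Ano2, a calcium-gated chloride channel gene, held 0 kb in E13.5 het and 9.57 kb in E16.5 het. Omp, the olfactory marker protein gene, and Cnga4, Gng13, Rtp1 and Rtp2 had none in any list. Lhx2, a homeodomain factor of olfactory neurons, was covered over 2.0 kb (het) and 7.28 kb (KO) in the E13.5 lists and not in later ones, and Emx2, another, over 3.0 and 4.21 kb and not in later ones. Of 9 genes for writers and readers of H3K9 methylation, only Ehmt1 and Setdb1 had a peak in any list. Setdb1, an H3K9 methyltransferase gene, held 1.31, 0, 1.78 and 5.77 kb in the het lists, in order of stage, and 0, 0, 1.71 and 6.07 kb in the KO lists.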

How the data were processed

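H3K9me3 ChIP-seq of 16 samples is represented by 8 peak lists deposited by the authors, whose only values are peak starts and ends as positions in bp, with no other unit, score or height. The submitters' processing notes name mm10 and, with no role, bcl2fastq 2.20, cutadapt 1.18, Bowtie2 2.3.4.1, deepTools 3.5.0 and HOMER 4.10. The calling threshold, the use of the H3 samples and the handling of replicates are not given in the sources used here. mm10 is the UCSC name of GRCm38, so gene positions came from the RefSeq table of GRCm38.p6, and printed positions are 1-based. Starts were read as counted from 0. Mitochondrial peaks, 2 or fewer per list, were left out.

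Covered base pairs were computed with Python 3.11.15, numpy 2.4.6 and pandas 2.3.3, by code tested on simulated data, over gene bodies, bodies with 5 kb flanks, cluster spans and 300-base start windows. Shares of genes carry 95% Wilson intervals. A gene was called at a difference of at least 1000 bp. The 16 H3 samples have no list and were not used.

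Genes were named by a rule: the 6 with the highest mean cover (ties by gene length), the largest differences between genotypes and between stages, genes that differed the same way at all 4 stages, cluster ends and their neighbours, genes wholly covered in all lists, the longest peaks, and Morc1. Others named, such as whole classes of few genes and the shown windows, were picked after their values were seen. The members and gene lists were chosen with earlier results of these data known. Alternatives were longer peaks only, equal peak numbers, other flanks, other gaps between clusters, a stricter body share and a larger call.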

Additional observations from a re-analysis of the deposited data

Results flagged for a closer look

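Over all members the KO minus het difference in covered length of gene bodies and flanks was 26.9 kb for the E13.5 lists and -53.6 kb for the E16.5 lists. In the large cluster the values were 21.2 and -63.5 kb. Both were singled out because the genotypes differed in opposite directions at these stages. The lists of the whole genome went the same way, with more covered length in KO at E13.5 and in het at E16.5. Olfr1198 was singled out for the same reason, with a het minus KO difference of 6.99 kb at P0 and -1.17 kb at E13.5, and so was Olfr141, with 5.29 kb for the E13.5 lists and -3.22 kb for the P3 lists. With 1 list per genotype and stage, the difference between stages was not tested for any of them.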

How the results depend on the processing

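Of 292 alternative values, 257 stayed within the limits used here, 30 moved and 5 changed direction. Of the 257, 24 came from a cluster gap of 200 kb and 24 from 1 Mb. Neither gap could change a value, as gaps inside clusters were at most 140 kb and the clusters lay further than 1 Mb apart. Keeping the longest 52628 peaks of each list left the E13.5 het list, which held that many, whole. The limits were wide for counts. With equal peak numbers, 107 members instead of 137 were higher at E16.5 than at E13.5 in het, which counted as within them. Each group has 1 list, so no replicate could be left out. No paired analysis was possible because each list names a genotype and a stage and no replicate. With at least 50% of the body covered, the share of members with a peak was 27.5% and 25.1% at E16.5 (het and KO), 20.9% and 23.3% at P0, and 19.2% and 18.5% at P3. The KO to het ratio at P0, 1.00 with all peaks, was 0.994 with peaks longer than 1001 bp only, 0.971 with the longest 52628 peaks of each list, and 0.960 with 10 kb flanks, and that of the large cluster at P3 was 0.968 with the longer peaks and 0.982 with equal numbers. With equal numbers the large cluster was covered to 18.2% and 16.3% at E16.5, 17.6% and 14.9% at P0, and 11.4% and 10.9% at P3. Over gene bodies alone the calls higher in het and in KO numbered 0 and 1 at E13.5, 7 and 4 at E16.5, 4 and 4 at P0, and 2 and 4 at P3. At 2000 bp or more they numbered 1 and 6, 16 and 7, 18 and 20, and 13 and 18, since both settings ask for more. With the longer peaks only, 3 members were called higher in het at E13.5, and 6 higher at P3 than at P0 in het. Otherwise the cause was not tested. Read depth and calling thresholds are unknown and limit every comparison between lists.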
